A study of Mus musculus with 4 samples.

Results

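The 7 genes described here belong to the NF-kB system of colonic monocytes and macrophages: Cd83 and Icam1, which code for surface proteins induced by it, its feedback inhibitors Nfkbia and Tnfaip3, Nfkbiz, which codes for the nuclear protein IkB-zeta, and its subunits Nfkb1 and Rel. They were taken by symbol from a matrix of 11820 genes, and all 7 were found in it. They were selected on stage and diet patterns already measured in these same cells, so their stage and diet values are given as a description and carry no p-value. Male C57/Bl6N mice, 6 to 7 weeks old, received normal chow (mice chow 9 and chow 11) or a coconut-based high-fat diet (HFD, 60% fat; mice HFD 1 and HFD 3) for 1 week. Live CD45+ lineage-negative CD11b+ CD24- cells that carried CD64 or Ly6C were sorted from the colonic lamina propria, and the cells of each mouse went into 1 well of a 10x Genomics 3′ v2 run, so mouse and library cannot be told apart. The study asked how 1 week of HFD changes these cells, and the question for the 7 genes was whether their levels differ by diet and by stage of maturation, and how this stands beside the interferon-induced genes.

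NF-kB is a family of dimeric transcription factors that inhibitor proteins hold in the cytoplasm until receptors for microbial products or cytokines trigger the removal of the inhibitors. The freed dimers induce inflammatory genes and also their own inhibitors, which gives the response a built-in brake. In the gut wall, monocytes enter from blood with high Ly6C, gain MHC class II and mature into macrophages with high complement C1q that are known for restrained responses to bacteria. Interferons act through a separate route, by STAT and IRF factors, and some genes such as Icam1 and Cxcl9 are known to answer to both routes.

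Cd83 lies at chr13:43784775-43803132 (plus strand), Icam1 at chr9:21015985-21028817 (plus), Nfkbia at chr12:55489410-55492647 (minus), Nfkbiz at chr16:55811375-55838899 (minus), Tnfaip3 at chr10:19000910-19015657 (minus), Nfkb1 at chr3:135584655-135691547 (minus) and Rel at chr11:23736847-23770970 (minus), all in GRCm38 by GENCODE M21. All 7 are protein-coding genes, and 2 overlap another gene model: Gm47079 lies antisense to Icam1 and Gm43430 lies on the strand of Nfkb1. Reads of these overlapping models could not be separated here.

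NF-kB binds DNA at κB sites, so the sequence before the RefSeq start is shown where one was found. It lets a reader see which of these genes carry the κB consensus next to that start. RefSeq promoter windows (GRCm38.p6, 250 bases before to 50 bases after the annotated start) were found for 4 of the 7 genes, Icam1, Nfkbia, Tnfaip3 and Rel; Cd83, Nfkbiz and Nfkb1 had no entry. The 250 upstream bases follow, 5′ to 3′ on the strand of the gene, and capitals mark matches to the κB consensus (10 letters, searched on both strands, overlapping matches counted).
Icam1, chr9:21015690-21015939, plus strand: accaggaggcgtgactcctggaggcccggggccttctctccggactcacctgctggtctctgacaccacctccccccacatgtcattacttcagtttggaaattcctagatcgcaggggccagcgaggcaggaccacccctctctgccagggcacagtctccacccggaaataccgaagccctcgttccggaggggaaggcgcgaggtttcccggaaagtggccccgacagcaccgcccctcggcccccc
Nfkbia, chr12:55492648-55492897, minus strand: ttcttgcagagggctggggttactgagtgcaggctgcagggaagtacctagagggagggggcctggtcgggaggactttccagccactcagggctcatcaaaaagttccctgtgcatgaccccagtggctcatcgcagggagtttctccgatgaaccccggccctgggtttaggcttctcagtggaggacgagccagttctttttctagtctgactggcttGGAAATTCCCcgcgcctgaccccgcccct
Tnfaip3, chr10:19015411-19015660, minus strand: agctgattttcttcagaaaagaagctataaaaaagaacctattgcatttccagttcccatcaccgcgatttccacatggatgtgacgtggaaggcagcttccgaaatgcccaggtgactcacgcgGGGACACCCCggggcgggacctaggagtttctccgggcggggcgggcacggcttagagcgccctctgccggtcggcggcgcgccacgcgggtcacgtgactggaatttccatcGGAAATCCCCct
Rel, chr11:23770970-23771219, minus strand: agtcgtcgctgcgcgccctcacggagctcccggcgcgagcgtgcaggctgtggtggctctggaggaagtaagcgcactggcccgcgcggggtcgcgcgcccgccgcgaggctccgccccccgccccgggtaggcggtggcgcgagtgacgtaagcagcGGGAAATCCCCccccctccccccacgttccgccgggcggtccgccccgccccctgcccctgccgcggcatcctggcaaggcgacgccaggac
Nfkbia holds 1 match, with its first base at -29 from the annotated start. Tnfaip3 holds 2, at -125 and -12, and Rel holds 2 that overlap, at -92 and -91. Nearly all of the Tnfaip3 window, with both matches, lies inside the GENCODE M21 gene model, which reaches chr10:19015657. The RefSeq start of Tnfaip3 is thus further into the gene than the GENCODE start. The Icam1 window held no match, nor did a second annotated start of Tnfaip3, which says only that these letters are absent from those windows. Of the 32851 windows in the same table, 2779 (8.46%) held at least 1 match and 402 (1.22%) held 2 or more.

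The matrix held 5420 cells, 904 of chow 9, 2002 of chow 11, 966 of HFD 1 and 1548 of HFD 3, with 3824228 to 7947893 UMIs (counted molecules) per mouse and medians of 3266 to 3926 UMIs per cell. In all, 23 cell barcodes occurred in more than 1 library. Cells were placed in stages by 3 gates that use none of the 7 genes. The gate genes can themselves differ by diet, and the paper lists Ly6c2 among the genes up-regulated by HFD. A gate thus need not hold cells of equal maturation on both diets, which was not tested. C1q-high cells had more than 23.5 UMIs of C1qa, C1qb and C1qc per 10000, and the remaining cells were split by Ly6c2 (at least 1 UMI) and by MHC class II (above or below 139.8 UMIs of 4 genes per 10000). The stages are ranges along these measures and not cell types, since 201 of the 5420 cells (3.71%) lay within 1.5-fold of the C1q cut, 187 of the 1696 C1q-low cells within 1.5-fold of the MHC II cut, and 283 of 1185 Ly6c2-positive C1q-low cells (23.9%) rested on a single Ly6c2 UMI. C1q-high cells made up 88.4% ± 5.55 (SD, n = 2 mice) of cells on chow and 44.8% ± 3.70 on HFD, and Ly6c2-positive MHC II-low cells 5.19% ± 2.82 and 22.9% ± 6.02. In every stage Lyz2, Csf1r, Cd68 and Fcgr1, markers of monocytes and macrophages, were detected in all 4 mice, while Itgam, which codes for the sorted surface protein CD11b, was at 0 to 4.84 counts per 1000000 UMIs (CPM).

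Markers of other cells were low in most sums. The 8 T and NK cell genes summed to 0 to 85.4 CPM in any mouse and stage, and the 4 neutrophil genes measured to 32.4 to 543. In contrast, 4 B and plasma cell genes, of which Igha and Jchain carry nearly all UMIs, summed to 40985 and 28354 CPM in the Ly6c2-positive MHC II-low cells of chow 9 and chow 11 against 9327 and 7786 in HFD 1 and HFD 3. In C1q-high cells the same genes summed to 2686 and 3133 on chow and to 165 and 126 on HFD. The 7 epithelial genes summed to 873 CPM in the Ly6c2-positive MHC II-low cells of HFD 3 and to 39.4 or less in every other sum. Only 24 staged cells had over 1% of their UMIs from B, plasma or epithelial markers, and without them the median log2 fold change of the 7 genes was -0.39, -0.91 and -0.74 in the 3 stages described below, against -0.40, -0.91 and -0.74 with them.

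Along maturation, Cd83, Tnfaip3 and Nfkbiz were at a higher level in C1q-high than in Ly6c2-positive MHC II-low cells, while Nfkbia and Nfkb1 were near equal in both. With the mouse as a term of the fit, the log2 difference of C1q-high from Ly6c2-positive MHC II-low cells was 1.16 ± 0.24 (SE, 4 mice) for Cd83, a marker of activated antigen-presenting cells. Within mice it was 1.78 in chow 9, 1.55 in chow 11, 1.24 in HFD 1 and 0.05 in HFD 3, so that HFD 3 had almost no rise. Tnfaip3, which codes for the ubiquitin-editing inhibitor A20, differed by 1.20 ± 0.16, with 1.35, 1.36, 1.29 and 0.83 in the same order of mice. Nfkbiz, whose product binds NF-kB in the nucleus and helps to switch on a subset of its target genes, differed by 0.70 ± 0.17, again with the smallest rise, 0.16, in HFD 3.
For the other 4 genes the difference was small or unlike between mice. Rel, which codes for the subunit c-Rel, gave 0.51 ± 0.15 and a rise in each mouse, from 0.26 to 0.76. Icam1, the adhesion molecule that binds leukocyte integrins, gave 0.21 ± 0.27, with 0.89 and 1.12 in the chow mice, 0.19 in HFD 1 and -0.79 in HFD 3. Nfkbia, which codes for the main cytoplasmic inhibitor IkB-alpha, gave 0.04 ± 0.14, and Nfkb1, which codes for p105 and p50, gave -0.09 ± 0.16. At a false discovery rate (FDR) of 1% in edgeR, Cd83, Tnfaip3 and Nfkbiz were called higher and 0 of the 7 lower, where 8.84% of all 5405 genes tested were called higher in C1q-high cells and 9.01% lower. The genes were chosen with the stage and diet contrasts known, so nothing is read from these or any later counts of calls among the 7. The calls of Cd83 and Nfkbiz were lost when chow 9, chow 11 or HFD 1 was left out.

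In C1q-high cells, Cd83, Icam1, Nfkbiz, Tnfaip3, Nfkbia and Rel had lower levels in both HFD mice than in both chow mice, and Nfkb1 did not. Cd83 stood at 3663 CPM (scaled by TMM, a library scaling of edgeR, as are all levels below unless stated) in chow 9, 3488 in chow 11, 1329 in HFD 1 and 969 in HFD 3. The mice of the 2 diets were far apart, with means of 3575 ± 124 on chow and 1149 ± 255 on HFD (SD, n = 2 mice), a 3.11-fold lower level and a fitted log2 fold change of -1.64 ± 0.17 (SE). Icam1 was at 108 in chow 9, 129 in chow 11, 72.3 in HFD 1 and 42.7 in HFD 3, with no overlap and a log2 fold change of -1.07 ± 0.24.
Nfkbiz was at 784 in chow 9, 1078 in chow 11, 599 in HFD 1 and 374 in HFD 3. The spread within each diet was wide, although the groups did not overlap, and the log2 fold change was -0.94 ± 0.24. Tnfaip3 was at 366 and 371 in the chow mice, almost the same value, and at 264 in HFD 1 and 179 in HFD 3, a log2 fold change of -0.74 ± 0.19 that was -0.48 without HFD 3. Nfkbia was at 3132 in chow 9, 3895 in chow 11, 2759 in HFD 1 and 2285 in HFD 3, with HFD 1 close under chow 9 and a log2 fold change of -0.48 ± 0.16 that was -0.31 without chow 11.
The subunit genes differed least. Rel was at 574 and 588 in the chow mice and at 519 in HFD 1 and 442 in HFD 3, a log2 fold change of -0.28 ± 0.13 that was -0.17 without HFD 3. Nfkb1 was at 153 in chow 9, 162 in chow 11, 218 in HFD 1 and 149 in HFD 3. Here HFD 1 was the highest mouse and HFD 3 the lowest, so the diets overlapped, and the log2 fold change of 0.21 ± 0.19 became -0.09 without HFD 1 and 0.47 without HFD 3.

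**Figure D1:**
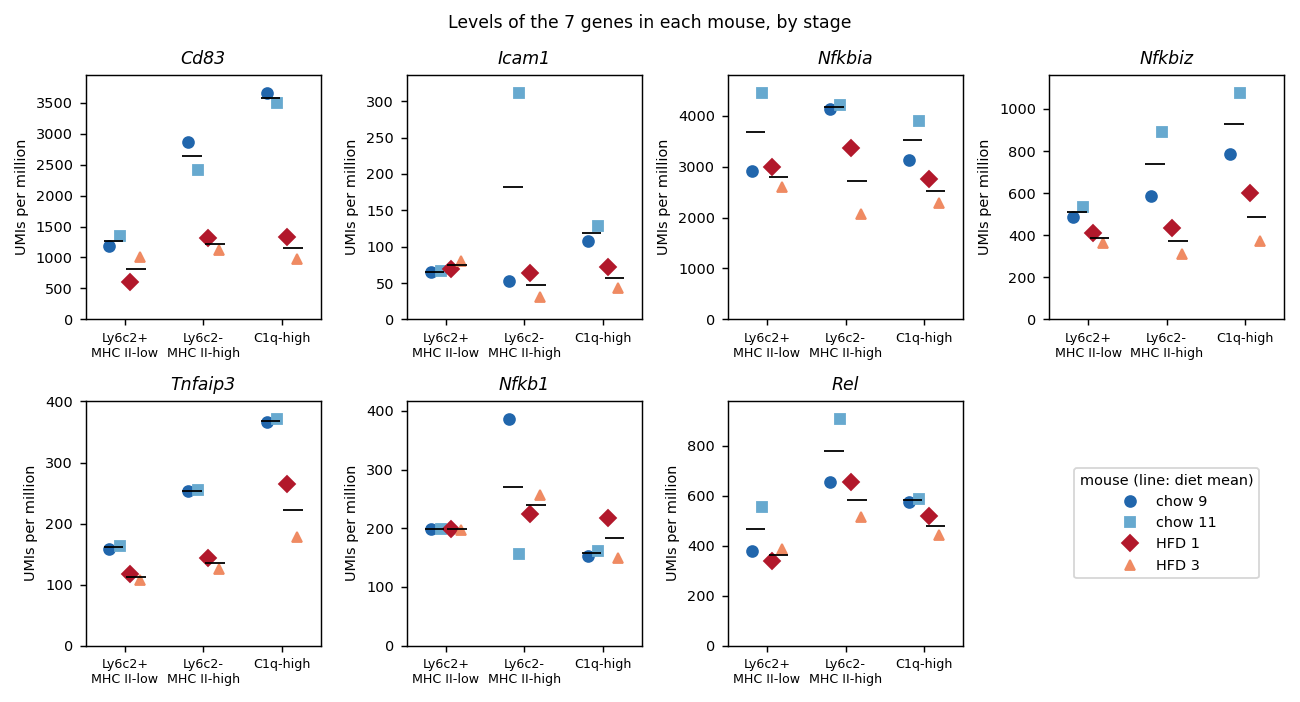
Level of each gene (vertical axis, TMM-scaled CPM) in the 4 mice, for the 3 stages that had at least 20 cells in every mouse. Each symbol is the sum over the cells of 1 mouse and each line the mean of a diet. In C1q-high cells both HFD mice lie under both chow mice for 6 of the 7 genes, with Cd83 at 3663 and 3488 on chow against 1329 and 969 on HFD.

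Of the 7 genes in C1q-high cells, 6 had both HFD mice below both chow mice, where this held for 32.4% of the 5065 genes tested. By edgeR at an FDR of 1%, Cd83 alone was called lower and none higher, where 5.13% of tested genes were called lower and 5.35% higher. DESeq2 called 4 of the 7 lower and 0 higher, with 610 genes called in all. Since the genes were chosen with this contrast known, nothing is read from these counts. Without chow 9, edgeR also called Icam1, Nfkbia and Nfkbiz lower, at -1.20, -0.63 and -1.15. Leaving out HFD 3 ended the call of Cd83, with a log2 fold change of -1.43, and leaving out HFD 1 left 114 called genes in all and leaving out HFD 3 left 32, against 531 with all 4 mice. Ly6c2 itself was at 27.1 and 32.8 CPM in the C1q-high cells of the chow mice and at 123 and 275 in those of HFD 1 and HFD 3, and the C1q genes at 19168 and 20045 against 14992 and 14039. With the C1q-high cells that had a Ly6c2 UMI left out, an alternative added after the data had been seen, the median log2 fold change of the 7 genes was -0.55 against -0.74.

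In the Ly6c2-negative MHC II-high cells, which numbered 27, 32, 106 and 186 in the 4 mice, Cd83, Nfkbia and Nfkbiz were at lower levels on HFD. The 10 listed dendritic cell genes summed to 774 and 816 CPM here on chow and to 1185 and 891 on HFD, more than in any other stage. Whether these cells are a step between monocytes and C1q-high cells was not tested. Cd83 was at 2863 in chow 9, 2408 in chow 11, 1322 in HFD 1 and 1121 in HFD 3, again with the diets apart, and its log2 fold change was -1.11 ± 0.21. Nfkbia stood at 4128 and 4207 on chow and at 3374 and 2065 on HFD, a log2 fold change of -0.62 ± 0.22 that was -0.30 without HFD 3 and -1.01 without HFD 1. Nfkbiz, at 586 and 892 on chow and 433 and 312 on HFD, gave -0.99 ± 0.27, and -0.66 without chow 11.
Tnfaip3 was at 253 and 255 on chow and at 144 and 126 on HFD, a clear gap at few UMIs (19 in chow 9 and 18 in chow 11), with a log2 fold change of -0.91 ± 0.34. Icam1 was at 53.3 in chow 9, 312 in chow 11, 64.1 in HFD 1 and 30.7 in HFD 3, so 1 chow mouse, on 22 UMIs, set the log2 fold change of -1.97 ± 0.58, which was -0.22 without chow 11. Nfkb1, at 386 and 156 on chow and 224 and 256 on HFD, and Rel, at 653 and 907 on chow and 655 and 514 on HFD, overlapped between diets. With 1 mouse left out their log2 fold changes ran from -0.67 to 0.63 and from -0.64 to -0.16. In this stage 4 of the 7 genes had both HFD mice below both chow mice, against 19.6% of the 4438 genes tested. By edgeR, Cd83 was called lower and none higher, against 0.766% of tested genes called lower and 0.721% higher. DESeq2 called 1 of the 7 lower and 0 higher, with 44 genes called in all. Without HFD 1 or without HFD 3 the call of Cd83 was lost, at -1.23 and -0.99, and without chow 9 Icam1 and Nfkbiz were called as well, at -2.77 and -1.27.

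In the Ly6c2-positive MHC II-low cells, the most monocyte-like end, Cd83, Nfkbiz and Tnfaip3 differed less than in C1q-high cells, and Icam1 was not lower on HFD. Rel did not differ less, with a log2 fold change of -0.36 here and -0.28 in C1q-high cells. Cd83 was at 1187 in chow 9, 1350 in chow 11, 612 in HFD 1 and 1012 in HFD 3, below chow in both HFD mice but with HFD 3 near it, and its log2 fold change of -0.65 ± 0.22 was -0.33 without HFD 1 and -1.05 without HFD 3. Tnfaip3, at 159 and 163 on chow and 117 and 108 on HFD, and Nfkbiz, at 487 and 535 on chow and 409 and 362 on HFD, also had the diets apart, with log2 fold changes of -0.52 ± 0.27 and -0.41 ± 0.20. Icam1 was at 64.5 and 66.2 on chow and at 68.6 and 80.5 on HFD, both HFD mice above chow, with a log2 fold change of 0.19 ± 0.37 on 13 UMIs in each chow mouse. That value was 0.07 without HFD 3 and 0.30 without HFD 1.
Nfkbia was at 2919 in chow 9, 4451 in chow 11, 2989 in HFD 1 and 2595 in HFD 3, and Rel at 377, 555, 339 and 385 in the same order, so the diets overlapped for both. Without chow 11 their log2 fold changes went from -0.40 to -0.06 and from -0.36 to -0.06, and without chow 9 that of Rel was -0.61. Nfkb1 was at 199 in both chow mice and at 199 and 197 in the HFD mice, so the diets overlapped. The count of genes with both HFD mice below both chow mice was 3 of 7, against 21.5% of the 4583 genes tested. By edgeR 0 of the 7 were called in this stage and by DESeq2 also 0, where 0.24% of tested genes were called lower and 0.633% higher. Without chow 9, edgeR called Nfkbia lower, at -0.66. The B and plasma cell sums given above for this stage were also lower on HFD, and the median log2 fold change of the 7 genes went from -0.40 to -0.39 when the cells with most of these UMIs were left out.

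The Ly6c2-positive MHC II-high cells could not be tested, because chow 9 had 4 of them and chow 11 had 23, against 110 and 369 in HFD 1 and HFD 3. There Cd83 was at 1764 and 1932 CPM on chow and 798 and 1040 on HFD, without TMM scaling, and Nfkbiz at 950 and 734 on chow and 479 and 337 on HFD. The chow values rest on 26 and 121 UMIs of Cd83 and 14 and 46 of Nfkbiz. Tnfaip3 had 0 UMIs of 14736 in chow 9, which allows a level of up to 204 CPM (3 UMIs, counting error only), and was at 224 in chow 11, 154 in HFD 1 and 109 in HFD 3. Nfkbia, at 3461 and 5668 on chow and 3085 and 2412 on HFD, and Rel, at 814 and 623 on chow and 539 and 439 on HFD, also had both HFD mice lowest. Icam1 (1 UMI) and Nfkb1 (1 UMI) could not be read in chow 9.

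**Figure D2:**
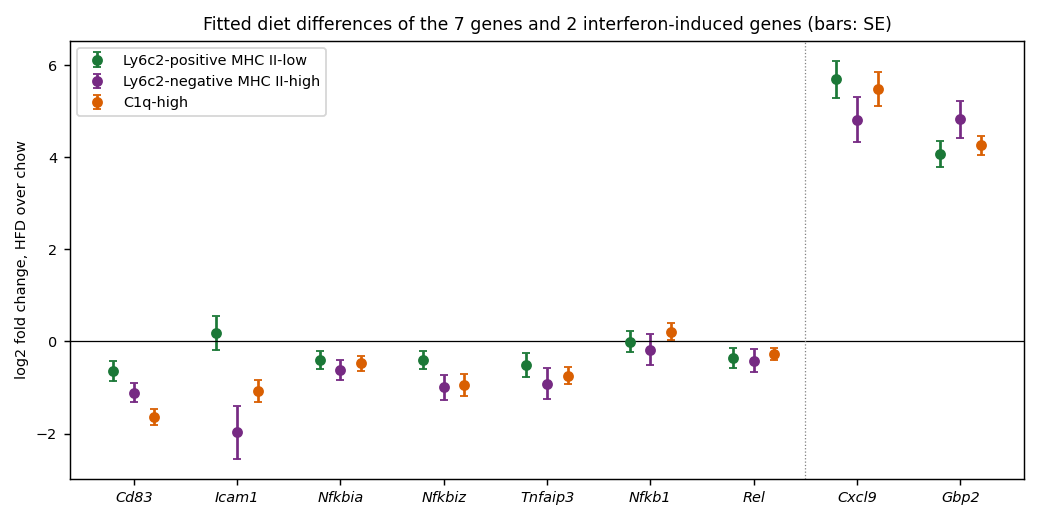
Fitted log2 fold change of HFD over chow (vertical axis) for the 7 genes and, right of the dotted line, for the interferon-induced genes Cxcl9 and Gbp2, in 3 stages, with bars for the standard error over 2 mice per diet. Cd83 goes from -0.65 in Ly6c2-positive MHC II-low to -1.64 in C1q-high cells, Nfkb1 lies between -0.18 and 0.21, and Cxcl9 and Gbp2 lie above 4.

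The median log2 fold change over the 7 genes was -0.40 in Ly6c2-positive MHC II-low, -0.91 in Ly6c2-negative MHC II-high and -0.74 in C1q-high cells, while that of all tested genes was -0.02, 0.06 and -0.02. With 1 mouse left out, the median of the 7 genes ran from -0.52 to -0.063, from -1.01 to -0.66 and from -1.05 to -0.48. The fitted change of the diet difference from Ly6c2-positive MHC II-low to C1q-high cells was -1.03 ± 0.28 for Cd83, -1.32 ± 0.40 for Icam1 and -0.60 ± 0.22 for Nfkbiz. It was -0.28 ± 0.26 for Tnfaip3, -0.15 ± 0.18 for Nfkbia, 0.15 ± 0.26 for Nfkb1 and 0.03 ± 0.22 for Rel. By these fitted values, the HFD mice lay further under chow at the C1q-high end for Cd83 and Nfkbiz, and for Icam1 the log2 fold change went from 0.19 to -1.07. The values are given as a description without a p-value because the genes were chosen with both contrasts known. The HFD mice were unlike here. From the first to the last stage HFD 3 differed by 0.05 for Cd83, -0.79 for Icam1 and 0.16 for Nfkbiz, and HFD 1 by 1.24, 0.19 and 0.67.
Within a diet the levels along the stages were as follows. On chow the mean level of Cd83 rose from 1268 ± 115 to 2636 ± 322 and 3575 ± 124 along the 3 stages, each step larger than the spread of the mice. On HFD it was 812 ± 283, 1222 ± 143 and 1149 ± 255, where the last 2 stages did not differ beyond their spread. Tnfaip3 rose on chow from 161 ± 2.89 to 254 ± 1.38 and 368 ± 4.0, and on HFD from 112 ± 6.19 to 135 ± 12.7 and 221 ± 60.6.

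When all cells of a mouse were ordered by C1q in 6 bins, with no other gate, Cd83 was lower in both HFD mice than in every chow mouse in each bin that had a value. Under 5 C1q UMIs per 10000 it was at 1530 CPM in chow 9, 1899 in chow 11, 828 in HFD 1 and 1119 in HFD 3. Between 100 and 200 it was at 3617 and 3563 on chow and at 1486 and 864 on HFD. Above 200 it was at 3379 and 3255 on chow and at 1906 and 1543 on HFD. The level in the chow mice thus rose above 50 C1q UMIs per 10000, whereas HFD 3 stayed between 857 and 1119 in the first 5 bins and rose only in the last.
For Cd83, Tnfaip3, Nfkbia and Nfkbiz the gap between diets was narrower above 200 than between 100 and 200. Tnfaip3 was at 401 and 423 on chow and 253 and 203 on HFD between 100 and 200, but at 277 and 297 on chow and 269 and 236 on HFD above 200. Nfkbia went from 3342, 4135, 2939 and 2335 in chow 9, chow 11, HFD 1 and HFD 3 between 100 and 200 to values above 200 of 2420 in chow 9, 3332 in chow 11, 2368 in HFD 1 and 2543 in HFD 3, with HFD 3 above chow 9. Nfkbiz was at 758 and 1193 on chow and at 579 and 395 on HFD between 100 and 200, and at 681 and 875 on chow and at 652 and 404 on HFD above 200. Rel overlapped between diets in both bins, at 578 and 610 on chow and 613 and 442 on HFD between 100 and 200. Above 200 Rel was at 484 and 519 on chow and 428 and 499 on HFD. Icam1 was at 103 and 132 on chow and 79.4 and 43.9 on HFD between 100 and 200. Above 200 it overlapped, at 81.0 and 110 on chow and 93.4 and 49.1 on HFD. Over the same bins Cxcl9 in HFD 1 fell from 1806 between 23.5 and 50 to 235 above 200, while in HFD 3 it went from 1031 to 630.

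**Figure D3:**
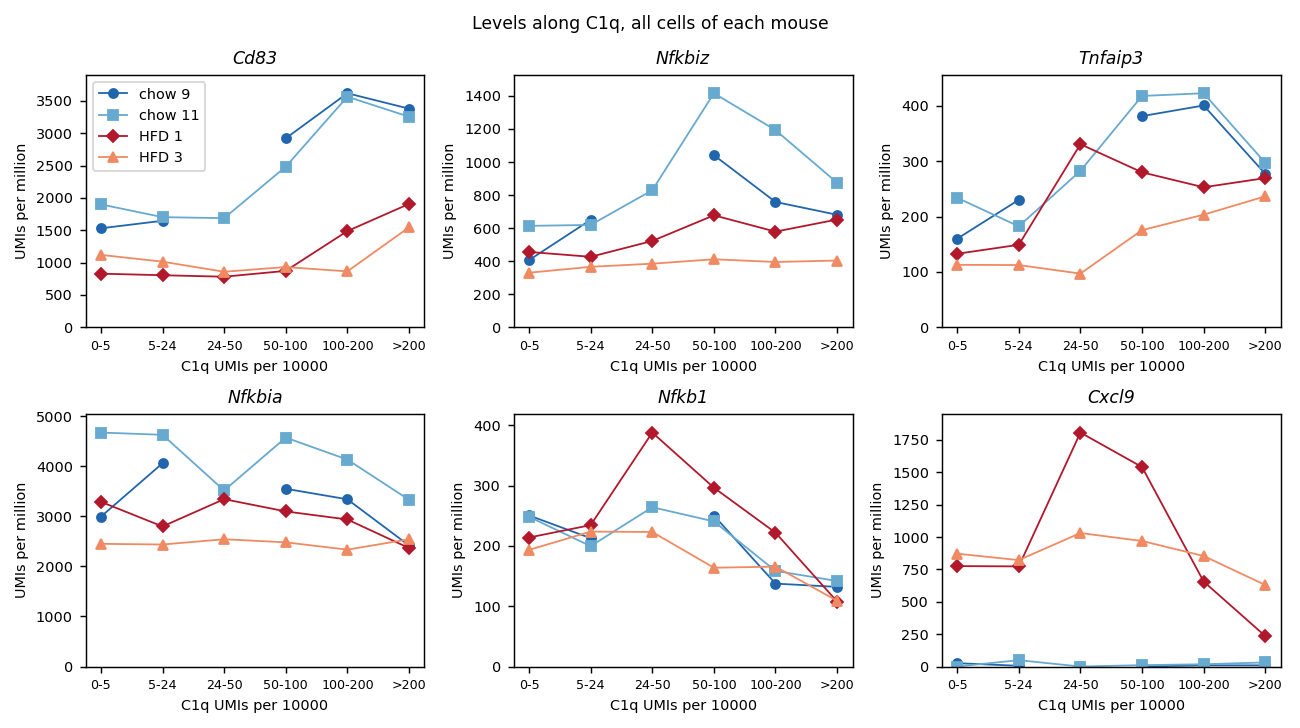
Level of 6 genes (vertical axis, CPM without TMM scaling) in bins of C1q UMIs per 10000 (horizontal axis) over all cells of each mouse; bins with under 20 cells are left out, which breaks the line of chow 9. Cd83 on HFD stays under every chow value in each bin, the gap in Cd83, Nfkbia and Tnfaip3 narrows above 200, and Cxcl9 is high on HFD only.

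Per cell, Cd83 in C1q-high cells was lower on HFD at the lower quartile, the median and the upper quartile. A shift of all cells was not told apart from a changed mix of cells within the stage. The median C1q-high cell had 13 Cd83 UMIs in chow 9, 11 in chow 11, and 3 in HFD 1 and in HFD 3. Per 10000 UMIs the medians were 29.4 and 29.2 on chow and 9.17 and 7.57 on HFD, and the upper quartile on HFD, 21.5 and 15.5, lay under the chow medians. Nfkbia had medians of 23.1 and 31.9 on chow and 23.5 and 16.4 on HFD, so the mice were interleaved. The median of Icam1 and of Nfkb1 was 0 UMIs per cell in all 4 mice, so that single cells say little about either.

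The gene lists used below were chosen with earlier results of these data known, so their calls and p-values are no independent evidence. Beyond the 7 genes, of 50 listed NF-kB target genes, 39 were tested in C1q-high cells, where 7 fell and 3 rose by edgeR at an FDR of 1%, with a median log2 fold change of -0.37. Of all genes tested there 5.13% were called lower and 5.35% higher, and their median was -0.02. The genes that fell were the chemokine genes Cxcl1, Ccl3, Ccl4 and Cxcl2, the cytokine gene Tnf, Zc3h12a, which codes for an RNase that limits cytokine mRNAs, and Rab20. Cxcl1 was at 1830 and 1585 on chow and at 403 and 315 on HFD, a log2 fold change of -2.25 ± 0.16 (edgeR adjusted p = 0.00014). Ccl3 was at 3687 and 3634 on chow and at 1242 and 753 on HFD, with -1.88 ± 0.22 (edgeR adjusted p = 0.0011).
The genes that rose were Sod2, Malt1 and Ptgs2. Sod2, the mitochondrial superoxide dismutase, was at 214 and 252 on chow and at 722 and 675 on HFD, a log2 fold change of 1.58 ± 0.14 (edgeR adjusted p = 0.00033). Malt1, a protease of the signalling complex upstream of NF-kB, was at 276 and 284 on chow and at 533 and 518 on HFD, with 0.91 ± 0.12 (edgeR adjusted p = 0.0020).
In Ly6c2-positive MHC II-low cells 2 of 39 tested targets fell (Ccl3 and Cxcl1) and Sod2 rose, with a list median of 0.04. Of all genes tested in this stage 0.24% were called lower and 0.633% higher. The call of Ccl3 was lost without HFD 1, at -1.05, and those of Cxcl1 and Sod2 without HFD 3, at -2.02 and 1.21. That of Cxcl1 was also lost, at -2.50, when cells with B, plasma or epithelial markers were left out. In Ly6c2-negative MHC II-high cells 3 of 38 fell (Ccl3, Cxcl1 and Cxcl2) and 0 rose, also 0 by DESeq2 and 0 at an unadjusted p under 0.05, with a median of -0.34. Of all genes tested in this stage 0.766% were called lower and 0.721% higher. There the call of Ccl3 was lost without HFD 1, at -1.50, and without HFD 3, at -1.33. With all 4 mice, Cxcl1 and Ccl3 were called lower in each of the 3 stages. By stage, 19 of 41 tested targets were higher in C1q-high than in Ly6c2-positive MHC II-low cells and 1 was lower. Of all genes tested between these stages 8.84% were called higher and 9.01% lower.

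Of 43 listed components such as receptors' adaptors, kinases, subunits and inhibitors, 30 were tested in C1q-high cells, and 2 rose and 0 fell by edgeR, where 5.35% of all tested genes were called higher and 5.13% lower, with a median log2 fold change of 0.06. DESeq2 called 1 higher and 0 lower, and at an unadjusted p under 0.05 edgeR had 7 higher and 4 lower. Traf1, an adaptor of TNF receptors and itself an NF-kB target, was at 84.3 and 91.0 on chow and at 174 and 168 on HFD, a log2 fold change of 0.96 ± 0.14 (edgeR adjusted p = 0.0026). Cyld, a deubiquitinase that restrains the pathway, was at 34.0 and 36.5 on chow and at 65.0 and 61.3 on HFD, with 0.83 ± 0.17 (edgeR adjusted p = 0.0096), a call lost in DESeq2 at 0.84. In Ly6c2-negative MHC II-high cells 1 of 30 fell, Tnip3, a partner of A20, at 573 and 411 on chow and 222 and 153 on HFD (-1.41 ± 0.30, edgeR adjusted p = 0.0061). That call was lost in DESeq2, at -1.42, without chow 9 and without HFD 3, at -1.15 each, and without HFD 1, at -1.68. No component rose in this stage by edgeR or DESeq2, and 2 were higher at an unadjusted p under 0.05. Of all genes tested there edgeR called 0.766% lower and 0.721% higher. In Ly6c2-positive MHC II-low cells 0 of 33 were called by edgeR or DESeq2, with 1 higher and 5 lower at an unadjusted p under 0.05.
Together 12 genes of both lists were called in C1q-high cells, 5 without HFD 1 and 1 without HFD 3. The calls of Traf1 and Malt1 were lost without either of these mice, at 0.93 and 0.88 without HFD 1 and 0.98 and 0.92 without HFD 3. The call of Cyld was lost without any 1 of the 4 mice, at 0.79 to 0.89. Those of Sod2 and Ccl3 were lost without HFD 3, at 1.63 and -1.56. In the Ly6c2-negative MHC II-high stage the count of 4 became 7 without chow 11 and 2 without either HFD mouse, and in Ly6c2-positive MHC II-low cells the count of 3 became 5 without chow 9, 8 without chow 11 and 2 without either HFD mouse.

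Of 42 listed interferon-gamma-induced genes, 24 were tested in C1q-high cells, and 15 rose and 1 fell by edgeR, with a median log2 fold change of 1.5. Of all genes tested in this stage 5.35% were called higher and 5.13% lower. Cxcl9, a chemokine that attracts T cells, was at 8.96 and 25.6 on chow and at 856 and 796 on HFD, a log2 fold change of 5.47 ± 0.37 (edgeR adjusted p = 0.0001). Gbp2, a guanylate-binding protein of cell-autonomous defence, was at 26.6 and 33.9 on chow and at 512 and 657 on HFD, with 4.25 ± 0.20 (edgeR adjusted p = 3.1e-05).
Ccl5, another T cell chemokine, was at 25.3 and 32.2 on chow and at 503 and 665 on HFD, with 4.32 ± 0.21 (edgeR adjusted p = 3.1e-05). The gene that fell was Vcam1, an adhesion molecule also induced by NF-kB, at 285 and 253 on chow and 138 and 132 on HFD (-0.99 ± 0.14, edgeR adjusted p = 0.0023), a call lost without HFD 1 at -1.03 and without HFD 3 at -0.96. Counts were 11 higher and 0 lower of 26 in Ly6c2-positive MHC II-low cells and 8 higher and 0 lower of 28 in Ly6c2-negative MHC II-high cells, with list medians of 2.20 and 1.96. At an unadjusted p under 0.05 the lower counts of the list stayed at 0 in both stages, and DESeq2 called 0 lower. Of all tested genes edgeR called 0.633% and 0.721% higher in these stages and 0.24% and 0.766% lower. HFD cells outnumbered chow cells in both, so the filter on the share of cells favoured genes present on HFD. These counts and medians may depend on that in part. Without a filter on low counts, both interferon lists together had 22 and 20 calls there.
Of the type I interferon list, 9 of 24 rose in C1q-high cells, 2 of 27 in Ly6c2-negative MHC II-high cells and 0 of 34 in Ly6c2-positive MHC II-low cells, where DESeq2 also called 0 and 7 were higher and 2 lower at an unadjusted p under 0.05. The shares of all tested genes called higher by edgeR were 5.35%, 0.721% and 0.633% in the same order of stages. Ms4a4c was at 91.4 and 102 on chow and 511 and 588 on HFD in C1q-high cells (2.5 ± 0.15, edgeR adjusted p = 6.1e-05), and at 1370 and 1604 on chow and 1248 and 1752 on HFD in Ly6c2-positive MHC II-low cells. Both interferon lists together had 25 calls in C1q-high cells, 13 without HFD 1 and 9 without HFD 3. In Ly6c2-positive MHC II-low cells 11 became 18 without chow 11 and 7 without HFD 3, and in Ly6c2-negative MHC II-high cells 10 became 4 without either HFD mouse.

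**Figure D4:**
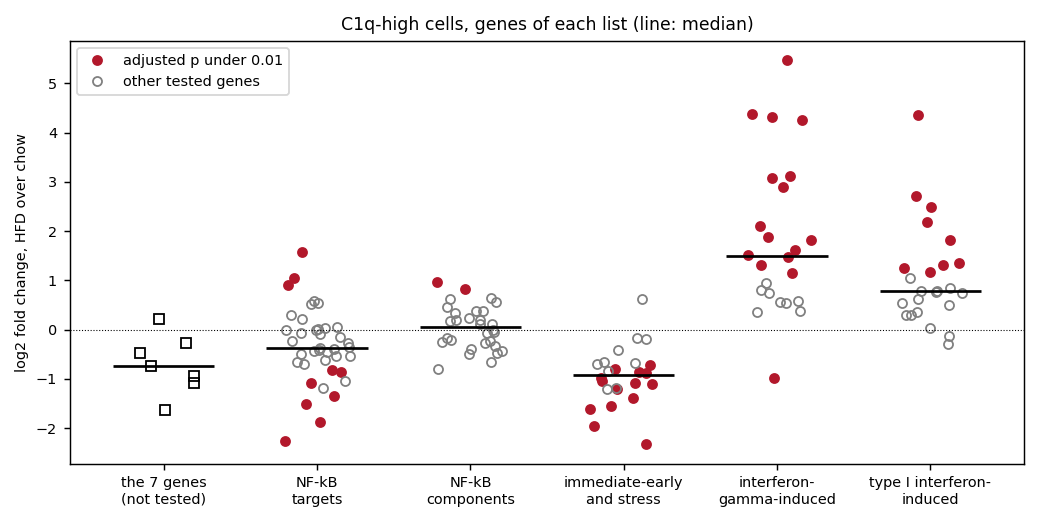
Log2 fold change of HFD over chow in C1q-high cells (vertical axis) for each tested gene of 5 lists and, as squares and without a test, for the 7 genes; filled points passed an edgeR FDR of 1% and lines are medians. The medians are -0.74 for the 7 genes, -0.37 for NF-kB targets, 0.06 for components, -0.93 for immediate-early and stress genes, 1.5 for interferon-gamma-induced and 0.78 for type I interferon-induced genes.

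Whether the genes were lower in the very cells that had more interferon-induced RNA was looked at within each mouse, by splitting the cells of a stage at the median share of the interferon-gamma list. In C1q-high cells the list itself was 1.35 to 1.67 higher on the log2 scale in the upper than in the lower part. Cd83 differed between the same parts by -0.01 in chow 9, -0.02 in chow 11, -0.18 in HFD 1 and -0.09 in HFD 3, against a difference of -1.64 between diets. In the interferon-low cells of this stage Cd83 was at 3478 and 3362 on chow and at 1464 and 1069 on HFD. These cells were low only for their mouse, since the list stood at 2881 and 3970 CPM in the interferon-low cells of HFD 1 and HFD 3 and at 2500 and 2799 in the interferon-high cells of chow 9 and chow 11. Cells with equal interferon-induced RNA were thus not compared between diets.
Nfkbia and Nfkbiz differed by -0.23 to 0.11 between the parts in C1q-high cells. Tnfaip3 was lower in the interferon-high part of both HFD mice, by -0.49 in HFD 1 and -0.37 in HFD 3, and higher in that of both chow mice, by 0.35 in chow 9 and 0.13 in chow 11. In Ly6c2-positive MHC II-low cells Cd83 was higher in the interferon-high part of both HFD mice, by 0.62 and 0.65, and near equal on chow, at 0.07 and -0.06. In Ly6c2-negative MHC II-high cells Cd83 was lower in the interferon-high part of the chow mice, by -1.03 and -0.63 on 13 to 16 cells per part, and by -0.18 and 0.01 on HFD. No single direction held over stages and mice for any of the 7 genes.

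**Figure D5:**
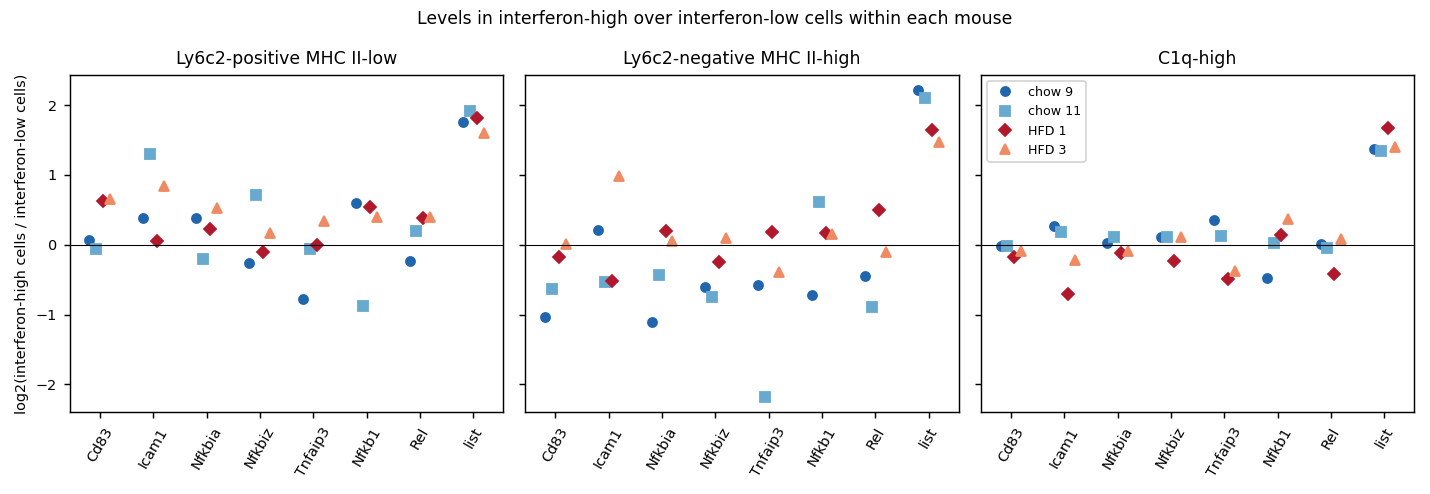
Log2 ratio of the level in interferon-high over interferon-low cells of the same mouse and stage (vertical axis) for the 7 genes and for the interferon-gamma list that made the split. In the 3 stages plotted the list lies between 1.35 and 2.22, as the split fixes, while in C1q-high cells Cd83 lies between -0.18 and -0.01.

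Immediate-early and stress genes, which respond to handling and dissociation of tissue as well as to NF-kB and growth signals, were measured as a list of their own. In C1q-high cells 14 of 24 fell by edgeR and 0 rose (0 also by DESeq2, and 1 higher at an unadjusted p under 0.05), with a median log2 fold change of -0.93. Of all genes tested in this stage edgeR called 5.13% lower and 5.35% higher. Atf3, a stress-induced transcription factor, was at 2080 and 2103 on chow and 636 and 437 on HFD (-1.97 ± 0.18, edgeR adjusted p = 0.00042), and Hspa1a, a heat-shock chaperone, was at 1550 and 1448 on chow and 541 and 435 on HFD (-1.62 ± 0.15, edgeR adjusted p = 0.00038). The 24 genes summed to 29303 and 29482 CPM in the C1q-high cells of the chow mice and to 17173 and 15315 in those of HFD 1 and HFD 3. Their calls became 2 without HFD 1 and 0 without HFD 3, where Atf3 was at -1.72 and Hspa1a at -1.47.
The median of this list was -0.36 in Ly6c2-positive MHC II-low cells, where 0 of 24 were called by edgeR or DESeq2 and 10 were lower and 1 higher at an unadjusted p under 0.05, and -0.58 in Ly6c2-negative MHC II-high cells, where 2 of 24 fell (Jun and Klf4), 0 by DESeq2 and 0 by edgeR without either HFD mouse. Of all genes tested in Ly6c2-negative MHC II-high cells edgeR called 0.766% lower and 0.721% higher. Without chow 11, 3 were called in Ly6c2-positive MHC II-low cells. The medians of the 7 genes in these stages were -0.40 and -0.91. All 24 genes were measured in the same cells as the 7, and their part in the result was not tested. The 10 listed dendritic cell genes summed to 173 and 189 CPM in C1q-high cells on chow and to 313 and 300 on HFD. In Ly6c2-negative MHC II-high cells they summed to 774 and 816 on chow and to 1185 and 891 on HFD. Over all cells of a mouse, 4 of the 10 (Flt3, Ccr7, Clec9a and Cd209a) had both HFD mice above both chow mice, 1 (Siglech) had them below, and the diets overlapped for 5 (Zbtb46, Fscn1, Xcr1, Itgae and Batf3). Ccr7, a marker of migrating dendritic cells, was at 12.8 and 12.0 CPM of all UMIs on chow and 120.3 and 107 on HFD, and Cd209a at 38.9 and 32.3 on chow and 98.3 and 113 on HFD. Flt3 was at 6.26, 1.64, 14.4 and 7.52 in chow 9, chow 11, HFD 1 and HFD 3, and the dendritic cell factor gene Zbtb46 at 2.87, 1.01, 2.88 and 1.79. The part of the dendritic cell genes in the result was not tested.

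Across the 12 sums of 3 stages and 4 mice, the genes outside the set whose levels were most like the mean standardized level of the 7 genes were Gadd45b (Pearson r = 0.94), Tgfbr2 (0.93), Fosb (0.93), Malat1 (0.92) and Opa3 (0.89), out of 3958 genes compared. The 12 sums share mice and libraries, so these values describe likeness only. Of the 7 genes, Nfkbiz (0.95), Tnfaip3 (0.92) and Cd83 (0.92) were closest to their own mean, Rel (0.80), Nfkbia (0.78) and Icam1 (0.65) followed, and Nfkb1 (-0.14) did not follow it.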

How the data were processed

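The authors pseudoaligned the reads to the mouse transcriptome of Ensembl release 97 with kallisto (0.46.0) and bustools (0.39.2), removed low-quality cells, low-abundance genes and cells not annotated as monocytes or macrophages, and deposited 1 table of UMI counts per gene and cell. A table of gene names matched 11819 of 11820 gene identifiers. Strand use in counting is not given in the sources used here, and no doublet caller was run here. The members, gates and lists were chosen with earlier results of these data known. Here the deposited counts were summed per mouse and stage (at least 20 cells), because cells of a mouse are not replicates. Genes with over 1 CPM in 2 sums and a UMI in 5% of the pooled cells of a stage were tested with the quasi-likelihood test of edgeR (4.0.16, R 4.3.3, TMM scaling, Benjamini-Hochberg adjustment, FDR of 1%). With 2 mice per diet, p-values measure only the spread between these mice, and whether mice shared a cage or day was not given in the sources used here. Stages were compared with the mouse as a term, and the diet difference between stages with an interaction term. Counts were simulated with a log2 change of 2 and 1 fixed dispersion for all genes, which was not estimated from these data. Recovery in the real counts may differ. On the simulated counts, the diet test recovered 97.5% of changed genes in C1q-high, 54.2% in Ly6c2-positive MHC II-low and 24.1% in Ly6c2-negative MHC II-high cells. The stage test recovered 98.8% and the interaction test 13.6%. C1q and MHC II cuts were set by the method of Otsu on log values over cells (scikit-image 0.26.0). DESeq2 (1.42.0) and 17 other settings were tried. From each list, called genes were named, or, beyond 4, the 2 with the lowest adjusted p per direction in the stage with most calls. Other genes named from these lists, Cxcl9 among them, were chosen after their values were seen. The 5 genes most alike in level were taken by Pearson correlation of log2(CPM + 1).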

Additional observations from a re-analysis of the deposited data

Results flagged for a closer look

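The diet effect of 13 listed genes outside the set differed between C1q-high and Ly6c2-positive MHC II-low cells by the interaction test of edgeR (n = 2 mice per diet). The lists were chosen with earlier results of these data known. The test called 68 of 5405 genes, 118 without chow 11, 30 without HFD 1 and 9 without HFD 3. The difference of log2 fold changes was 2.66 for Irf7 (adjusted p = 3.9e-06), 2.45 for Ms4a4c (6.1e-07), 3.22 for Ifi205 (0.0011), 1.75 for Ifitm3 (6.8e-05), 1.55 for Zbp1 (0.0027) and 1.37 for Ifi27l2a (0.00014), all interferon-induced genes with a higher log2 fold change of HFD over chow in C1q-high cells. In Ly6c2-positive MHC II-low cells that fold change was -0.06 for Irf7, -0.10 for Ifi27l2a, 0.01 for Ms4a4c, 0.04 for Ifitm3, 1.17 for Ifi205 and 1.47 for Zbp1. Irf1 and Gbp3 differed the other way, by -2.10 (0.00022) and -1.62 (0.0018), and Irf1 had a log2 fold change of 2.42 in Ly6c2-positive MHC II-low and 0.35 in C1q-high cells.

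Traf1, a component of NF-kB signalling, differed by 1.47 (edgeR adjusted p = 0.0019), with -0.56 in Ly6c2-positive MHC II-low and 0.96 in C1q-high cells. The target gene Ccl4 differed by -1.66 (0.0034). The immediate-early genes Socs3, Atf3 and Klf6 differed by -1.76 (2.3e-05), -1.64 (0.00053) and -1.16 (0.0028).

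Icam1 stood out among the 7 genes because both HFD mice were above both chow mice in Ly6c2-positive MHC II-low cells and below them in C1q-high cells, with a fitted difference of -1.32. The higher level in the first stage was small, at 64.5 and 66.2 CPM on chow with 13 UMIs in each mouse against 68.6 and 80.5 on HFD, and 21.5% of all tested genes there had both HFD mice above both chow mice. Its log2 fold change was 0.19 ± 0.37, 0.07 without HFD 3, and it kept its sign in 14 of 18 alternatives. The difference between stages is given as a description without a p-value, since the gene was chosen with these values known.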

How the results depend on the processing

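No paired analysis was possible because the mouse numbers (9 and 11 on chow, 1 and 3 on HFD) are not shared between diets. Of 299 recomputed values of 17 results, 194 stayed within 1.5 times or the spread of the mice and 105 did not, and the cause was not tested. Values are given for Ly6c2-positive MHC II-low, Ly6c2-negative MHC II-high and C1q-high cells in turn. Leaving out 1 mouse, with the lone mouse of a diet assumed to vary like the others, gave 28 to 114, 21 to 125 and 32 to 764 called genes (40, 66 and 531 with all mice). NF-kB list calls were then 2 to 8, 2 to 7 and 1 to 18 (3, 4 and 12), interferon list calls 7 to 18, 4 to 14 and 9 to 31 (11, 10 and 25), immediate-early calls 0 to 3, 0 to 3 and 0 to 19 (0, 2 and 14), and the median log2 fold change of the 7 genes -0.52 to -0.063, -1.01 to -0.66 and -1.05 to -0.48. Stage calls were 626 to 808 (965) and interaction calls 9 to 118 (68), 118 without chow 11, 30 without HFD 1 and 9 without HFD 3.

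A likelihood-ratio test in edgeR called 94, 126 and 926 genes, 6 and 7 of the NF-kB lists in the first and second stage, 18 and 16 of the interferon lists, 1 immediate-early gene in the first, and 185 interactions. No filter on low counts gave 111, 140 and 912 genes, 22 and 20 interferon calls, 2 and 1 immediate-early calls, 165 interactions and medians of -0.22 and -0.63. An FDR of 5% gave 85, 148 and 1145 genes, 5, 7 and 22 NF-kB calls, 18 and 18 interferon calls, 1 immediate-early call, 1536 stage calls and 175 interactions. A Ly6c2 gate of 2 UMIs gave 22 genes, 6 interferon calls and a median of -0.54 in the first stage and 1 immediate-early call in the second. Equal cell numbers gave 9 and 28 genes, 0 and 2 NF-kB, 5 and 5 interferon and, in the second stage, 0 immediate-early calls. Without MHC II in the gates the first median was -0.50 and interactions were 128. Halving the C1q cut gave 1 NF-kB call in the first stage and no value in the second, which had too few cells, and doubling it gave 1 immediate-early call in the second. DESeq2 gave 0 immediate-early calls there. All cells of a mouse together gave 803 genes, 21 NF-kB, 38 interferon and 14 immediate-early calls and a median of -1.09. Among 4 alternatives chosen after seeing the data, adjusted degrees of freedom gave 38 genes, 2 NF-kB and 0 immediate-early calls in the second stage, and a C1q cut multiplied by 4 gave 187 and, for C1q-high cells, 342 genes, and in the second stage 9 NF-kB, 20 interferon and 9 immediate-early calls and a median of -1.17.

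Cd83 kept its sign in every setting run, and so did the other genes except Nfkb1 in all 3 stages and Icam1 in Ly6c2-positive MHC II-low cells. Of 404 recomputed calls of named list genes, 50 were lost and 0 turned. In the chow mice the first stage held 64 and 65 cells and the second 27 and 32, which limits the depth of those sums.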
